A study of Mus musculus with 14 samples.

Results

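The genes described here make the histone variant H2A.Z and handle it on chromatin. They are the H2A.Z genes H2afz and H2afv (now also named H2az1 and H2az2), the SRCAP complex genes Srcap, Znhit1, Vps72 and Actr6, the removal chaperone gene Anp32e, the INO80 complex genes Ino80 and Ino80c, and the reader gene Pwwp2a. They were chosen by name and function, with earlier results of these data known. By gene identifier, all 10 were found among the 26270 identifiers of the count tables. All 10 passed the filter on low counts that left 14327 genes for testing. RNA came from primary mouse embryonic fibroblasts isolated at E13.5 and grown in 3% oxygen, a culture of mesenchymal cells taken from whole embryos. The 14 libraries form 4 groups: Tip60+/+ control cells at day 3 (n = 3) and day 5 (n = 4), and Tip60-/- cells, called KO here, at day 3 (n = 3) and day 5 (n = 4). Tip60 is the acetyltransferase encoded by Kat5, and its loss was induced with 250 nM 4-OHT (4-hydroxytamoxifen). One treatment text covers every library, so the labels do not separate what the control cells received, and they name no Cre driver.

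H2A.Z replaces canonical H2A in nucleosomes beside transcription start sites and at enhancers, and is needed for mouse development. The SRCAP complex, and the Tip60-p400 complex that contains Kat5, exchange H2A for H2A.Z. Tip60 also acetylates H2A.Z, while Anp32e and, by several reports, INO80 take it out, and Pwwp2a binds nucleosomes that carry it.

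Total counts ran from 2187168 (KO replicate 3, day 3) to 39203154 (KO replicate 2, day 3), and the rarest value among these genes was 16 counts, for H2afz. Levels are CPM (counts-per-million), scaled between libraries by TMM (trimmed mean of M values). Kat5 lay between 18.3 and 21.1 CPM in KO and 31.5 and 32.3 CPM in control cells at day 3, and between 17.3 and 19.9 against 29.8 and 32.1 CPM at day 5. KO libraries had 62.3% of the control level at day 3 and 59.6% at day 5, with no overlap. The labels do not state which part of the gene is deleted, and these counts cover the whole gene. The gene Rnaseh2c overlaps Kat5 on the opposite strand, and the strand setting of the counting is not given in the sources used here. Each genotype came from 4 embryos whose identifiers do not overlap, 5 of 7 KO libraries but 1 of 7 control libraries were male, and control replicates 1 and 2 of day 3 carry the same embryo label. Embryo origin and genotype cannot be told apart. All 8 fibroblast markers were tested, and none was at 0 in any group. Control replicate 4 of day 5 is the only male control and the only control of another litter, so leaving it out and adding sex to the model are not fully separate checks. It stood apart: 6 cartilage markers summed to 2606 CPM there, against 182 to 357 CPM in the other day 5 controls, 1838 to 3798 CPM in day 5 KO, 2301 to 2699 CPM in day 3 KO and 74.1 to 168 CPM in day 3 controls. The summed fibroblast markers were higher in KO at day 3 (27159 to 27550 against 16479 to 20165 CPM) and lower at day 5 (16020 to 19330 against 20538 to 25248 CPM). Of those 8 markers, 4 were called higher and 0 lower at day 3 (adjusted p below 0.05, edgeR). At day 5, 3 were called higher and 3 lower, a split that the sum does not show. Over all tested genes 24.6% were called higher and 26.2% lower at day 3, and 26.3% and 26.2% at day 5. Summed endothelial markers were higher in KO at day 3 (16.0 to 17.9 against 11.6 to 15.8 CPM) and day 5 (14.6 to 18.2 against 5.7 to 8.87 CPM). Of 4 tested, 1 was called higher at day 3 and 2 at day 5, with 0 lower. At day 3 the summed neural and glial markers were higher (287 to 404 against 152 to 243 CPM) and the summed macrophage markers lower (24.4 to 31.0 against 33.6 to 45.8 CPM) in KO. There 1 of 5 neural and glial markers was called higher, and 2 of 4 tested macrophage markers were called lower. The part of these marker differences in the results below was not tested. In bulk RNA, fewer cells of a type and less RNA per cell cannot be told apart.

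The sequences of the H2A.Z genes matter for reading their counts, so their coding parts are shown first. H2afz lies at chr3:137864487-137866922 on the plus strand and H2afv at chr11:6427226-6444511 on the minus strand (mm10). The first 240 bases of each coding sequence are printed 5′ to 3′, from the GENCODE M21 transcripts, with capitals where the genes differ.
H2afz: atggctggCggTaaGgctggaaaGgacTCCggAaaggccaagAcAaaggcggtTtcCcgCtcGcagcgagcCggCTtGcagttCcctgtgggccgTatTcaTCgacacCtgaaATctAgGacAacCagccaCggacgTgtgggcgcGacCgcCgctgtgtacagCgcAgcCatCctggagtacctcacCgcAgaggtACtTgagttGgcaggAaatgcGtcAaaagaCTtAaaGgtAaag
H2afv: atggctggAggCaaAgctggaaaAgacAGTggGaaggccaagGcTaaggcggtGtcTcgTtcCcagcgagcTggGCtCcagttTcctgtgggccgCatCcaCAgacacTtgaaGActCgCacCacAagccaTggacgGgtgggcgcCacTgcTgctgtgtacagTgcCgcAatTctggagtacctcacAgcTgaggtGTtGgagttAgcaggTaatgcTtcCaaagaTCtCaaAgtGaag
Over all 384 coding bases the genes differ at 80 positions (79.2% identical). Of 128 codons, 73 differ but only 3 encode another residue, so the genes make nearly the same protein from clearly distinct messages. The longest identical run is 14 bases, and no 80-base stretch, the length of the reads, is shared between H2afv and any other annotated transcript.

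H2afz is different in this respect. Its pseudogene Gm8203 lies at chr6:116173632-116174497 (mm10, RefSeq). The annotated GENCODE transcript of Gm8203, 387 bases long, has 0 differences from the 384 coding bases of H2afz whose start is printed above. The rest of the RefSeq span was not compared. All 308 of the 80-base windows in the annotated Gm8203 transcript also occur in H2afz, and they make up 31.1% of the 990 windows of the H2afz transcript. The related genes Gm13007 and Gm6722 hold some of these windows too and have no row of that name in the count tables. The count tables hold 16887 counts for Gm8203 over the 14 libraries and 2068 for H2afz. How reads that match both were assigned is not given in the sources used here, so H2afz is reported by its own counts and, beside them, with Gm8203 added. The second quantity was chosen after the counts had been seen.

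H2afz encodes H2A.Z.1, and its level was lower in KO cells at both days, by its own counts and with Gm8203 added. Its own counts gave 12.8, 10.9 and 15.9 CPM in the day 3 controls and 6.75, 7.51 and 5.43 CPM in the day 3 KO libraries. No KO library reached a control library at that day. H2afz fell to 48.7% of control, a log2 fold change of -1.04 ± 0.204 (SE; adjusted p = 0.000764, edgeR quasi-likelihood test, used for all adjusted p-values below). At day 5 the controls held 13.7, 13.7, 12.4 and 8.8 CPM, and the KO libraries 7.98, 7.1, 9.24 and 8.52 CPM. The ranges overlapped through control replicate 4 alone, the library with high cartilage marker counts. H2afz fell to 67.6% of control at day 5 (log2 -0.57 ± 0.162 SE, adjusted p = 0.00912). That change was -0.70 without control replicate 4 (adjusted p = 0.000602). Once sex entered the model it was -0.47 and was not called (adjusted p = 0.0517).

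Gm8203 alone stood at 96.2, 94.6 and 95.2 CPM in the day 3 controls and at 59.5, 58.7 and 53.3 CPM in KO. Its day 5 values were 110, 116, 104 and 90.5 CPM in controls and 63.7, 59.7, 66.2 and 69 CPM in KO, so neither day overlapped. Summed with H2afz, the mean fell from 109 ± 2.8 (SD, n = 3) to 63.7 ± 4.29 CPM (SD, n = 3) at day 3, to 58.6% of control (log2 -0.77 ± 0.096 SE, adjusted p = 1.92e-05). At day 5 it fell from 117 ± 13.3 to 72.9 ± 4.69 CPM (SD, n = 4 each), to 62.0% (log2 -0.69 ± 0.081 SE, adjusted p = 9.59e-06). The sum was tested only in the main model, so sex as covariate and leaving out libraries were not tried for it. The difference of the KO effect between days was not called for H2afz alone (0.47 ± 0.259 SE, adjusted p = 0.241, 95% interval -0.03 to 0.98). That wide interval leaves the size of the difference undecided. For the sum it was not called either (0.08 ± 0.125 SE, adjusted p = 0.713, 95% interval -0.16 to 0.33).

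H2afv encodes H2A.Z.2, and its level moved the other way. The day 3 controls held 8.1, 12.7 and 12.8 CPM, and the day 3 KO libraries 15, 20.7 and 20.9 CPM, with every KO library above every control. H2afv rose to 163% of control at day 3 (log2 0.70 ± 0.188 SE, adjusted p = 0.00639). At day 5 the controls had 18.7, 14.8, 17.4 and 20.1 CPM and the KO libraries 20.3, 20.2, 21.7 and 25.5 CPM. The lowest KO library lay just above the highest control, control replicate 4. The day 5 difference of 0.30 ± 0.149 (SE, log2) was not called (adjusted p = 0.1). Over 14 alternatives it lay between 0.17 and 0.37 and was called in 2: without control replicate 4 (0.37, adjusted p = 0.0495) and when only the day 5 groups were fitted (0.31, adjusted p = 0.046). The lowest value, 0.17, came with sex in the model (adjusted p = 0.351). Control cells themselves rose in H2afv between the days, to 157% of the day 3 level (log2 0.65 ± 0.172 SE, adjusted p = 0.00792).

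The balance of the H2A.Z genes was measured as the log2 ratio of H2afz to H2afv counts within each library, which does not depend on scaling between libraries. It was 0.66, -0.22 and 0.31 in the day 3 controls and -1.15, -1.46 and -1.95 in the day 3 KO libraries. The mean was 1.77 lower in KO (difference -1.77, exact two-sided permutation p = 0.1, the smallest that 3 against 3 allows). The day 5 controls gave -0.45, -0.12, -0.49 and -1.19, and the day 5 KO libraries -1.35, -1.51, -1.23 and -1.58. The groups did not overlap, though control replicate 4 at -1.19 lay close to the highest KO library at -1.23. The difference of -0.86 had an exact two-sided permutation p of 0.0286, the smallest that 4 against 4 allows. With Gm8203 added to H2afz, every ratio was positive, and the differences were -1.54 at day 3 (exact p = 0.1) and -0.99 at day 5 (exact p = 0.0286). Per kilobase, H2afv supplied 33.2% ± 6.81 (SD, n = 3) of the H2A.Z message in day 3 controls and 62.5% ± 6.39 (SD, n = 3) in day 3 KO by the genes' own counts. With Gm8203 added those shares were 5.68% ± 1.32 and 14.8% ± 2.81 (SD, n = 3 each). At day 5 the shares in controls and KO were 46.4% ± 7.74 and 61.0% ± 2.62 by the genes' own counts (SD, n = 4 each). With Gm8203 added the day 5 shares were 8.25% ± 1.77 and 14.9% ± 0.866 (SD, n = 4 each). The shift toward H2afv was therefore in both quantities, while the gene that supplied most of the message in KO cells depended on where the Gm8203 reads were placed.

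**Figure D1:**
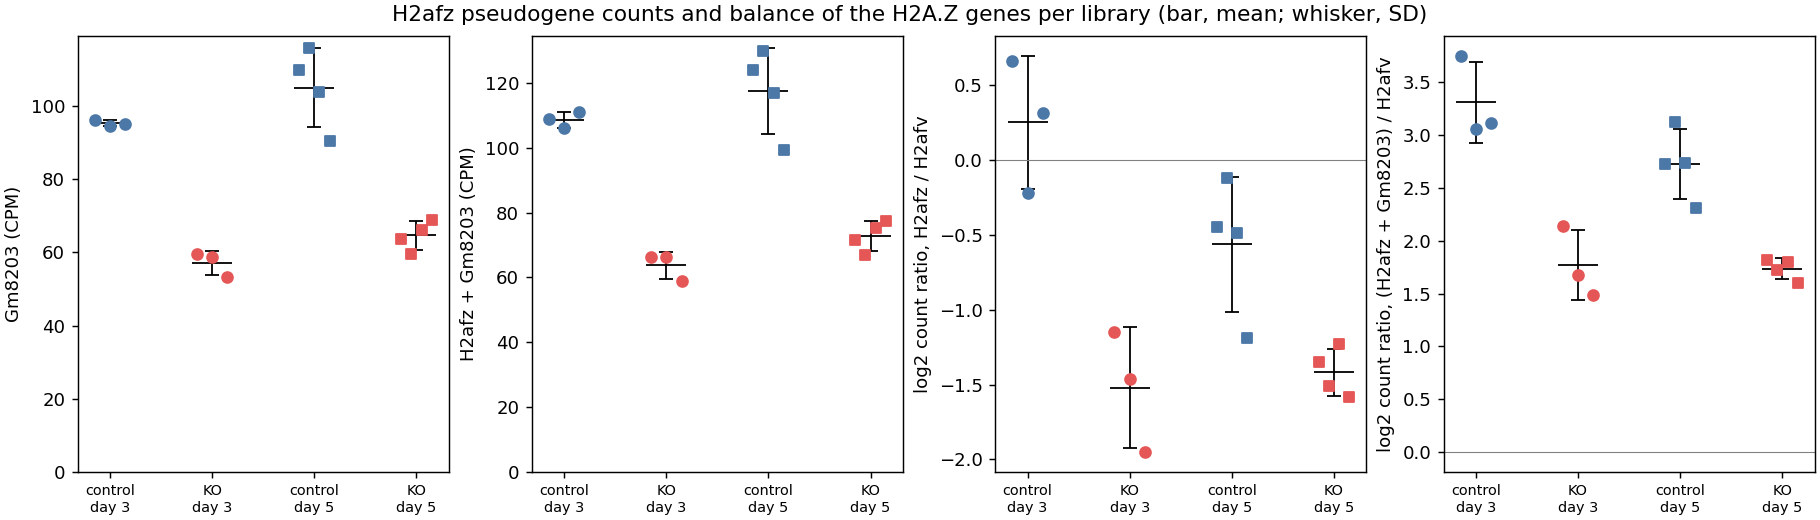
From left to right: Gm8203 CPM, CPM of H2afz and Gm8203 summed, the log2 ratio of H2afz to H2afv counts, and the same ratio with Gm8203 added, in each library of the 4 groups (bar, mean; whisker, SD). The summed level stays between 58.8 and 77.5 CPM in all KO libraries and between 99.3 and 130 CPM in all control libraries.

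The promoters of the H2A.Z genes are shown because these genes moved in opposite directions. The sequences below are RefSeq (mm10), upstream of the annotated start, 5′ to 3′ on the gene's strand, at chr3:137864237-137864486 (plus, 250 bases) and chr11:6444512-6444693 (minus, 182 bases). Capitals mark matches to the searched motifs on either strand.
H2afz: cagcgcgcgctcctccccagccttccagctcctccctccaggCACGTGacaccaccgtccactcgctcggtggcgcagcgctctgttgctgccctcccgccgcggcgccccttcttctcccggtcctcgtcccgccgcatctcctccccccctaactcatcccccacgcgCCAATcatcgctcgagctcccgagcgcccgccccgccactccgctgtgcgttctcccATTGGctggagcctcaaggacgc
H2afv: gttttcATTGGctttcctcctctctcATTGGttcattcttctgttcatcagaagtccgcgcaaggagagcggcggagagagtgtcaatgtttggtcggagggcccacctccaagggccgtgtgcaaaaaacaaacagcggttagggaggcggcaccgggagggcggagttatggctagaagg
The motifs searched were the CCAAT box, the E-box CACGTG bound by Myc and Max, the core TTTGAA of the CHR element of cell cycle genes, and the E2F sites with letters TTTGGCGC or with letters TTTCGCGC. No motif of this list contains another. In the 250 bases before the start, H2afz held 2 CCAAT boxes and 1 E-box, and H2afv held 4 CCAAT boxes and 1 CHR core, some of them in the stretch not printed because a longer transcript covers it. Over 32851 mouse promoter windows of that length, 33.8% held the CCAAT box, 6.02% the E-box and 16.0% the CHR core, and 0.417% and 0.256% held the E2F motifs, which neither gene had. These matches describe the letters only.

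Among all 10 genes, 7 were called at day 3 (adjusted p below 0.05), with 2 higher and 5 lower. Over all tested genes 50.9% were called at that day, 24.6% higher and 26.2% lower, so the share was not far from the background. The libraries of KO and control did not overlap for 7 of the 10 genes, against 57.8% of all genes. At day 5 again 7 were called, 2 higher and 5 lower, against 52.5% of all genes (26.3% higher, 26.2% lower), and 7 did not overlap, against 47.4%. The median log2 fold change was -0.24 at day 3 and -0.14 at day 5, beside 0.00 and 0.02 over all tested genes.

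**Figure D2:**
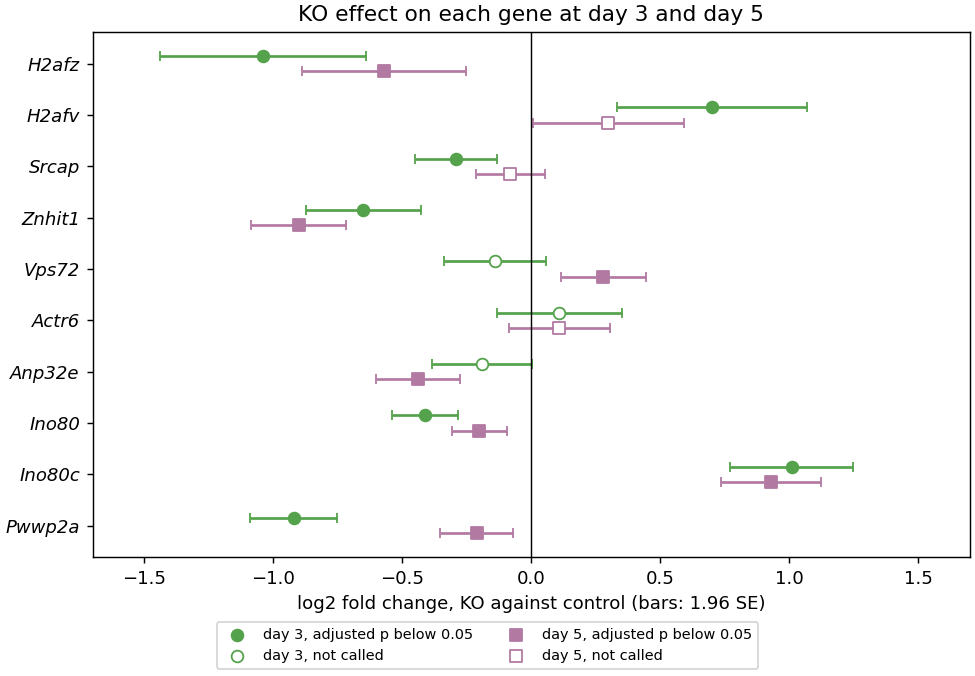
Log2 fold change of KO against control for each gene at day 3 (circles) and day 5 (squares), with bars of 95% intervals from the SE; filled symbols passed the test. Znhit1 and Pwwp2a lie left of 0 and Ino80c right of 0 at both days, while Vps72 lies at -0.14 at day 3 and 0.28 at day 5.

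The SRCAP complex deposits H2A.Z, and its genes did not move as a unit. Srcap, the ATPase of the complex (chr7:127511983-127561219, mm10), had 146, 153 and 158 CPM in day 3 controls and 120, 116 and 138 CPM in day 3 KO, without overlap. Srcap fell to 81.9% at day 3 (log2 -0.29 ± 0.081 SE, adjusted p = 0.00845). At day 5 the controls had 132, 128, 120 and 136 CPM and the KO libraries 112, 121, 129 and 127 CPM. These ranges overlapped, and the difference of -0.08 ± 0.069 (SE) was not called (adjusted p = 0.343). The change of KO effect on Srcap between the days was not called (0.21 ± 0.106 SE, adjusted p = 0.208). The annotated gene Gm42715 overlaps Srcap on the same strand and shares 89.8% of the 80-base windows of the Srcap transcript. The count tables hold no row of that name, so no counts of that stretch were listed under it. The antisense gene 1700008J07Rik also overlaps Srcap and is counted separately.

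Znhit1 encodes a zinc finger subunit needed for SRCAP to exchange H2A.Z (chr5:136982194-136987959, mm10), and it was the SRCAP gene with the steadiest loss. It had 20.3, 25.9 and 21.7 CPM in day 3 controls against 14.5, 13.2 and 15.1 CPM in KO. The day 5 values were 24.6, 24.2, 20.9 and 21.7 CPM against 12.1, 11.7, 13.3 and 11.9 CPM. Every KO library lay below every control library at both days. Znhit1 fell to 63.6% at day 3 (log2 -0.65 ± 0.114 SE, adjusted p = 0.000321) and to 53.5% at day 5 (log2 -0.90 ± 0.094 SE, adjusted p = 3.49e-06). The change of KO effect on Znhit1 between the days was not called (-0.25 ± 0.147 SE, adjusted p = 0.28). The gene Plod3 overlaps it on the opposite strand, and the libraries were made with a stranded kit, but the strand setting of the counting is not given in the sources used here.

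Vps72 encodes YL1, the subunit that binds the H2A.Z-H2B dimer and belongs to both SRCAP and the Tip60 complex (chr3:95111042-95123051, mm10). It had 33.1, 38.6 and 35.7 CPM in day 3 controls and 36.5, 27.7 and 31.3 CPM in day 3 KO, which overlapped. The difference at day 3 was -0.14 ± 0.1 (SE, adjusted p = 0.509). At day 5 the controls had 27, 31.6, 28 and 28.7 CPM and the KO libraries 33.5, 36, 34.9 and 35.7 CPM, with no overlap. Vps72 rose to 121% at day 5 (log2 0.28 ± 0.084 SE, adjusted p = 0.0125). In control cells it fell between the days to 80.6% (log2 -0.31 ± 0.091 SE, adjusted p = 0.0148), a call lost without control replicate 2 of day 3 (-0.25, adjusted p = 0.0796). The change of KO effect between the days, 0.42 ± 0.131 (SE), passed the test narrowly (adjusted p = 0.0468) and was called in only 5 of 20 alternative settings (adjusted p 0.0174 to 0.121).

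Actr6, the actin-related ARP6 subunit of SRCAP (chr10:89711966-89732319, mm10), held 10.5 to 11.6 CPM in day 3 controls, 11 to 13.6 in day 3 KO, 11 to 13.4 in day 5 controls and 11.7 to 14.0 in day 5 KO. The groups overlapped at both days. The KO difference was 0.11 at day 3 (95% interval -0.13 to 0.36, adjusted p = 0.741) and 0.11 at day 5 (95% interval -0.09 to 0.30, adjusted p = 0.389). With sex in the model it was 0.03 at each day.

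Anp32e encodes the chaperone that takes H2A.Z-H2B dimers off nucleosomes (chr3:95929245-95947387, mm10). It had 92.8, 86.2 and 89.9 CPM in day 3 controls and 91.4, 68.6 and 72.4 CPM in day 3 KO. KO replicate 2 sat with the controls, and the difference of -0.19 ± 0.099 (SE) was not called (adjusted p = 0.116). That library was the deepest, the only female one among the day 3 KO libraries and the only one of its litter there. All day 3 controls were female. Without KO replicate 2, which left male KO libraries against female controls, the difference was -0.34 and was called (adjusted p = 0.00582). It was -0.12 without KO replicate 3 (adjusted p = 0.327) and -0.07 with sex in the model (adjusted p = 0.979). At day 5 the controls had 134, 128, 121 and 111 CPM and the KO libraries 89.4, 93.7, 87 and 94.3 CPM, well apart. Anp32e fell to 73.8% at day 5 (log2 -0.44 ± 0.083 SE, adjusted p = 0.000565). Control cells rose in Anp32e between the days, to 138% (log2 0.46 ± 0.091 SE, adjusted p = 0.00112), and the KO cells had 0.22 ± 0.092 (SE, adjusted p = 0.151). The difference between these changes was not called (-0.25 ± 0.129 SE, adjusted p = 0.221).

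Ino80, the ATPase of the INO80 remodeller (chr2:119373042-119478685, mm10), was lower in KO at both days. Its day 3 values were 69.4, 67.4 and 71.6 CPM in controls against 51, 54 and 52.8 CPM in KO. At day 5 the controls had 60.4, 57.1, 60.8 and 56.7 CPM against 51.5, 53.3, 50.9 and 48.3 CPM in KO. Neither day overlapped. Ino80 fell to 75.5% at day 3 (log2 -0.41 ± 0.065 SE, adjusted p = 0.000166) and to 86.9% at day 5 (log2 -0.20 ± 0.055 SE, adjusted p = 0.00664).

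Ino80c, a small subunit of the same complex (chr18:24104761-24121819, mm10), went the opposite way and changed most in the upward direction among the 10 genes. It had 18.6, 20.2 and 18.3 CPM in day 3 controls against 31.8, 46 and 40.4 CPM in KO. The day 5 controls had 19.6, 21.6, 22 and 23.3 CPM against 40.7, 38.3, 41.1 and 44.7 CPM in KO. The lowest KO library exceeded the highest control at each day by a wide margin. Ino80c rose to 201% at day 3 (log2 1.01 ± 0.121 SE, adjusted p = 1.37e-05) and to 191% at day 5 (log2 0.93 ± 0.099 SE, adjusted p = 4.36e-06). The test of the difference between the days gave -0.08 ± 0.156 (SE, adjusted p = 0.798).

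Pwwp2a encodes a PWWP domain protein that binds H2A.Z nucleosomes and joins them to histone deacetylase (NuRD) components (chr11:43681125-43722633, mm10). Its day 3 control level stood far above every other group. These controls had 45.3, 43.2 and 39.7 CPM, and the day 3 KO libraries 22.2, 25.4 and 21.5 CPM. The day 5 controls had 23, 24.3, 23 and 23.2 CPM and the day 5 KO libraries 19.5, 21.2, 20.6 and 19.5 CPM, just below them. Pwwp2a fell to 53.0% at day 3 (log2 -0.92 ± 0.086 SE, adjusted p = 1.72e-06) and to 86.3% at day 5 (log2 -0.21 ± 0.072 SE, adjusted p = 0.0221). The day 5 difference stayed between -0.23 and -0.19 over 14 alternatives. It missed the threshold at -0.19 without control replicate 2 (adjusted p = 0.0677), without KO replicate 1 (adjusted p = 0.0617) and without KO replicate 4 (adjusted p = 0.0602), and at -0.20 once sex entered the model (adjusted p = 0.0562). The KO effect differed between the days by 0.70 ± 0.111 (SE, adjusted p = 0.00125), a call kept in all 20 alternatives run (adjusted p 1.24e-05 to 0.013).

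**Figure D3:**
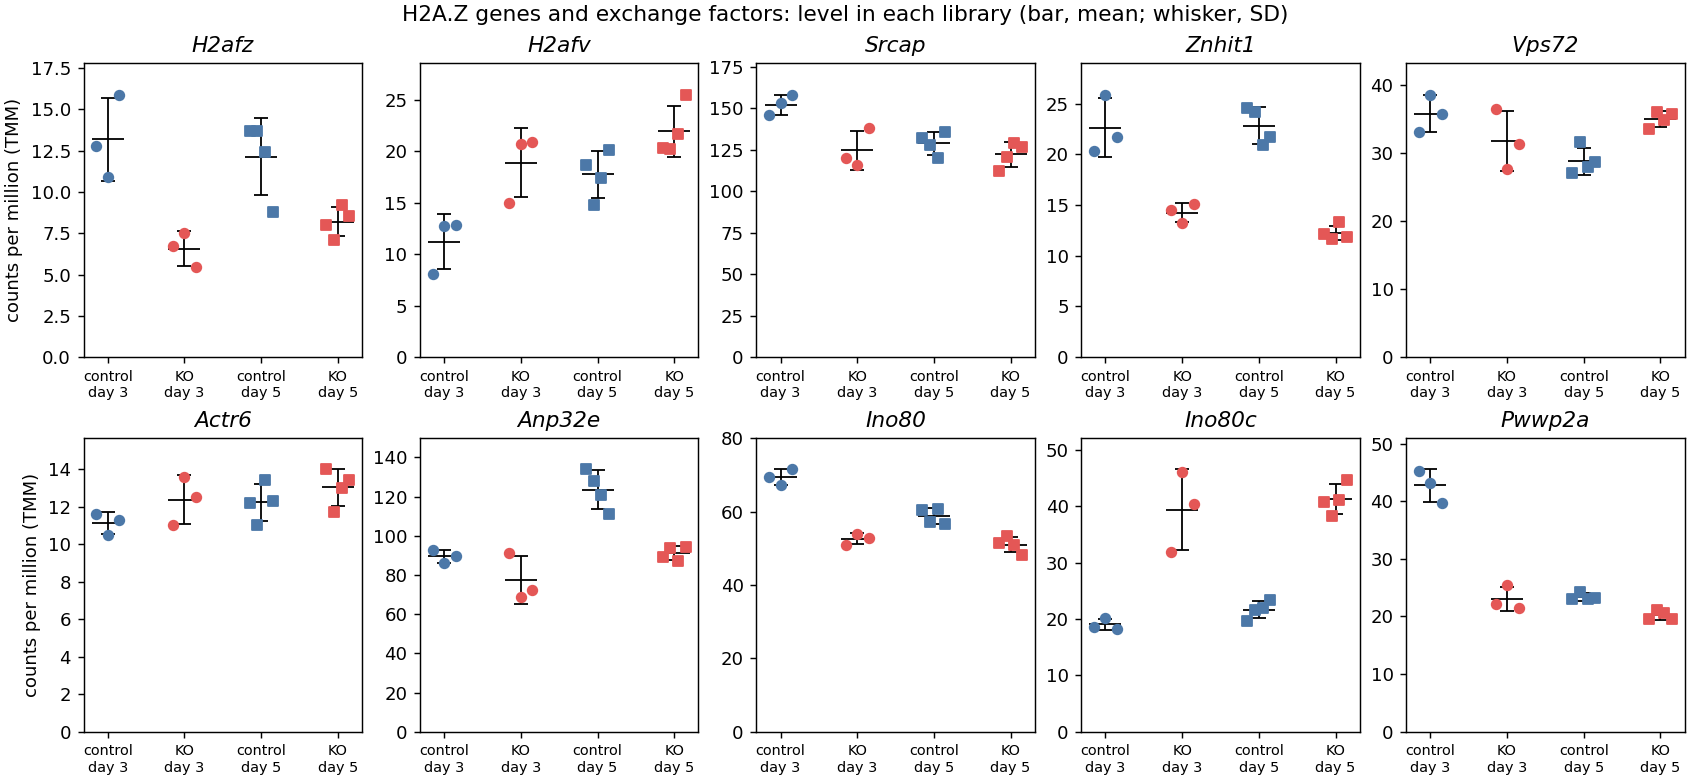
CPM of each of the 10 genes in every library of the 4 groups, on axes that start at 0 (bar, mean; whisker, SD). Pwwp2a shows day 3 controls at 39.7 to 45.3 CPM above all other libraries, and Ino80c shows both KO groups at 31.8 CPM or more above all controls.

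Of the 10 genes, 2 had a KO effect that differed between the days (Pwwp2a and Vps72), against 14.3% of all tested genes. In control cells 6 differed between day 5 and day 3, against 38.3% of all genes. H2afv and Anp32e rose, and Srcap (log2 -0.24, adjusted p = 0.0204), Vps72, Ino80 (log2 -0.24, adjusted p = 0.00493) and Pwwp2a fell. Pwwp2a fell to 54.8% of its day 3 level (log2 -0.87 ± 0.076 SE, adjusted p = 1.36e-06). This comparison and the KO effect at day 3 share the day 3 control libraries, so their values for Pwwp2a are not independent. With the embryo as a block 4 genes were called, against 4293 of all 14327 tested genes. Ino80 (log2 -0.20, adjusted p = 0.138) and Srcap (log2 -0.27, adjusted p = 0.0504) then missed the threshold with differences about as large. In KO cells edgeR called 0 of the 10 between the days, against 12.0% of all genes, and 2 had an unadjusted p under 0.05. DESeq2 also called 0 there. The proliferation genes move with day and genotype: 12 of them summed to 365 to 438 CPM in day 3 controls, 419 to 662 in day 3 KO, 771 to 1236 in day 5 controls and 836 to 937 in day 5 KO. Of these, 7 rose and 1 fell in KO at day 3, against 24.6% higher and 26.2% lower over all tested genes. At day 5, 0 rose and 5 fell, against 26.3% higher and 26.2% lower (52.5% called in all). Mki67, a marker of cycling cells, had a log2 fold change of 0.55 at day 3 (adjusted p = 0.0213) and -0.46 at day 5 (adjusted p = 0.0199). Top2a, a topoisomerase of dividing cells, had 0.64 (adjusted p = 0.0339) and -0.25 (adjusted p = 0.306), and the replication clamp gene Pcna had 0.22 and -0.11, called at neither day. Their part in the results above was not tested.

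Levels per kilobase use the gene length given with the counts. That length was 2360 bases for Ino80c and 5813 for Pwwp2a, but their GENCODE transcripts have 909 and 3277 bases. For Anp32e the lengths were 3260 and 3274 bases, so the order of the genes depends on the length chosen. By the length given and the genes' own counts, Anp32e had the highest level of the 10 genes in every group. It ran from 23.8 ± 3.75 CPM per kb in day 3 KO (SD, n = 3) to 37.9 ± 2.97 in day 5 controls (SD, n = 4). Vps72 followed in 3 groups and Znhit1 in the day 5 controls, and at day 3 the libraries of Anp32e and Vps72 overlapped in both genotypes. Pwwp2a was lowest in 3 groups, at 3.48 ± 0.144 CPM per kb in day 5 KO (SD, n = 4), and Actr6 in day 3 controls, at 6.55 ± 0.34 (SD, n = 3), where it overlapped H2afv. Ino80c moved from rank 7 in day 3 controls to rank 3 in day 3 KO. H2afz, which ranked 4 in both control groups and 9 and 7 in KO, would rank first in all 4 groups with Gm8203 added, at 113, 66.6, 123 and 76.1 CPM per kb of H2afz length in day 3 control, day 3 KO, day 5 control and day 5 KO.

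The wider pathway was read from 30 further genes in 5 lists, also chosen with earlier results of these data known. At day 3, 4 were higher, 9 lower and 17 not called. At day 5, 10 were higher, 14 lower and 6 not called. The shares over all tested genes, against which these counts and those of each list below are read, were 24.6% higher and 26.2% lower at day 3 (50.9% in all), and 26.3% higher and 26.2% lower at day 5 (52.5% in all). Sex in the model left 12 called at day 3 and 19 at day 5, where 6603 and 6776 of all 14327 tested genes were called. The median was -0.11 at day 3 and -0.15 at day 5, beside 0.00 and 0.02 over all tested genes. Sequence shared with pseudogenes was not examined for these genes.

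Of the histone chaperones, 3 of 4 were lower at day 3 and all 4 at day 5 (medians -0.69 and -0.89), where 26.2% of all genes were lower at each day. Anp32b, a relative of Anp32e, fell from 204 ± 7.61 to 70.6 ± 15.3 CPM at day 3 (SD, n = 3 each; log2 -1.50, adjusted p = 4.14e-06). Anp32a, another relative, fell from 112 ± 6.32 to 54.5 ± 4.69 CPM at day 5 (SD, n = 4 each; log2 -1.05, adjusted p = 2.55e-07). Nap1l1, which carries H2A-H2B dimers, fell by 0.66 and 0.74 on the log2 scale at days 3 and 5 (adjusted p = 0.000528 and 5.39e-05). Nap1l4 of the same family was called at day 5 and not at day 3 (log2 -0.15, adjusted p = 0.0387).

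Of the other H2A variants, 1 of 4 fell at day 3, near the 26.2% of all genes, and all 4 fell at day 5, where that share was also 26.2%. H2afy2, a macroH2A gene, fell by 0.52 at day 3 and 1.09 at day 5 on the log2 scale (adjusted p = 0.00159 and 5.39e-07). H2afj and H2afx, the gene of the DNA damage variant, were called at day 5 and not at day 3, at -0.88 (adjusted p = 2.9e-05) and -0.46 (adjusted p = 0.0036), as was the macroH2A gene H2afy at -0.22 (adjusted p = 0.026).

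Other Tip60 complex subunits, all but Ep400 shared with SRCAP or INO80, gave 2 higher and 1 lower of 6 at each day. Dmap1, shared by Tip60 and SRCAP, rose from 16.5 ± 1.15 to 27.2 ± 2.19 CPM at day 5 (SD, n = 4 each; log2 0.72, adjusted p = 2.19e-05). Ruvbl2, an ATPase common to all 3 complexes, fell from 80.5 ± 4.87 to 38.1 ± 10.5 CPM at day 3 (SD, n = 3 each; log2 -1.03, adjusted p = 0.000489). Its partner Ruvbl1 was not called at either day. Yeats4, which reads acetylated histones, rose by 0.21 and 0.38 on the log2 scale (adjusted p = 0.0497 and 0.000588), and the p400 ATPase gene Ep400 was called at neither day (0.14 and 0.13).

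Of the 10 other INO80 subunits, 1 rose, 2 fell and 7 were not called at day 3, where 50.9% of all tested genes were called. At day 5, 5 rose, 3 fell and 2 were not called, where 52.5% of all tested genes were called. Yy1, the transcription factor in the complex, fell by 0.40 and 0.60 on the log2 scale (adjusted p = 0.00087 and 8.44e-06). Mcrs1 rose by 0.40 and 0.45 (adjusted p = 0.0132 and 0.00184). Ino80e fell at day 3 (log2 -0.37, adjusted p = 0.0208), where Tfpt was not called (-0.32, adjusted p = 0.0622), and Ino80d and Nfrkb rose at day 5 (0.44 and 0.36, adjusted p = 0.00111 and 0.00118). Among H2A.Z nucleosome binders and Pwwp2a partners, 1 of 6 rose and 2 fell at day 3, and 3 rose and 2 fell at day 5. Pwwp2b, the paralogue of Pwwp2a, fell from 24.7 ± 1.79 to 12.1 ± 2.7 CPM at day 3 (SD, n = 3 each; log2 -0.95, adjusted p = 3.21e-05) and by 0.77 on the log2 scale at day 5 (adjusted p = 3.13e-05). Mta1, a NuRD subunit, fell by 0.76 and 0.78 on the log2 scale (adjusted p = 3.75e-06 and 6.71e-07). Phf14 rose by 0.42 and 0.26 (adjusted p = 0.000832 and 0.00598), and Brd2, a bromodomain protein, had 0.14 at day 3 (adjusted p = 0.0987) and rose at day 5 (0.36, adjusted p = 0.000189).

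**Figure D4:**
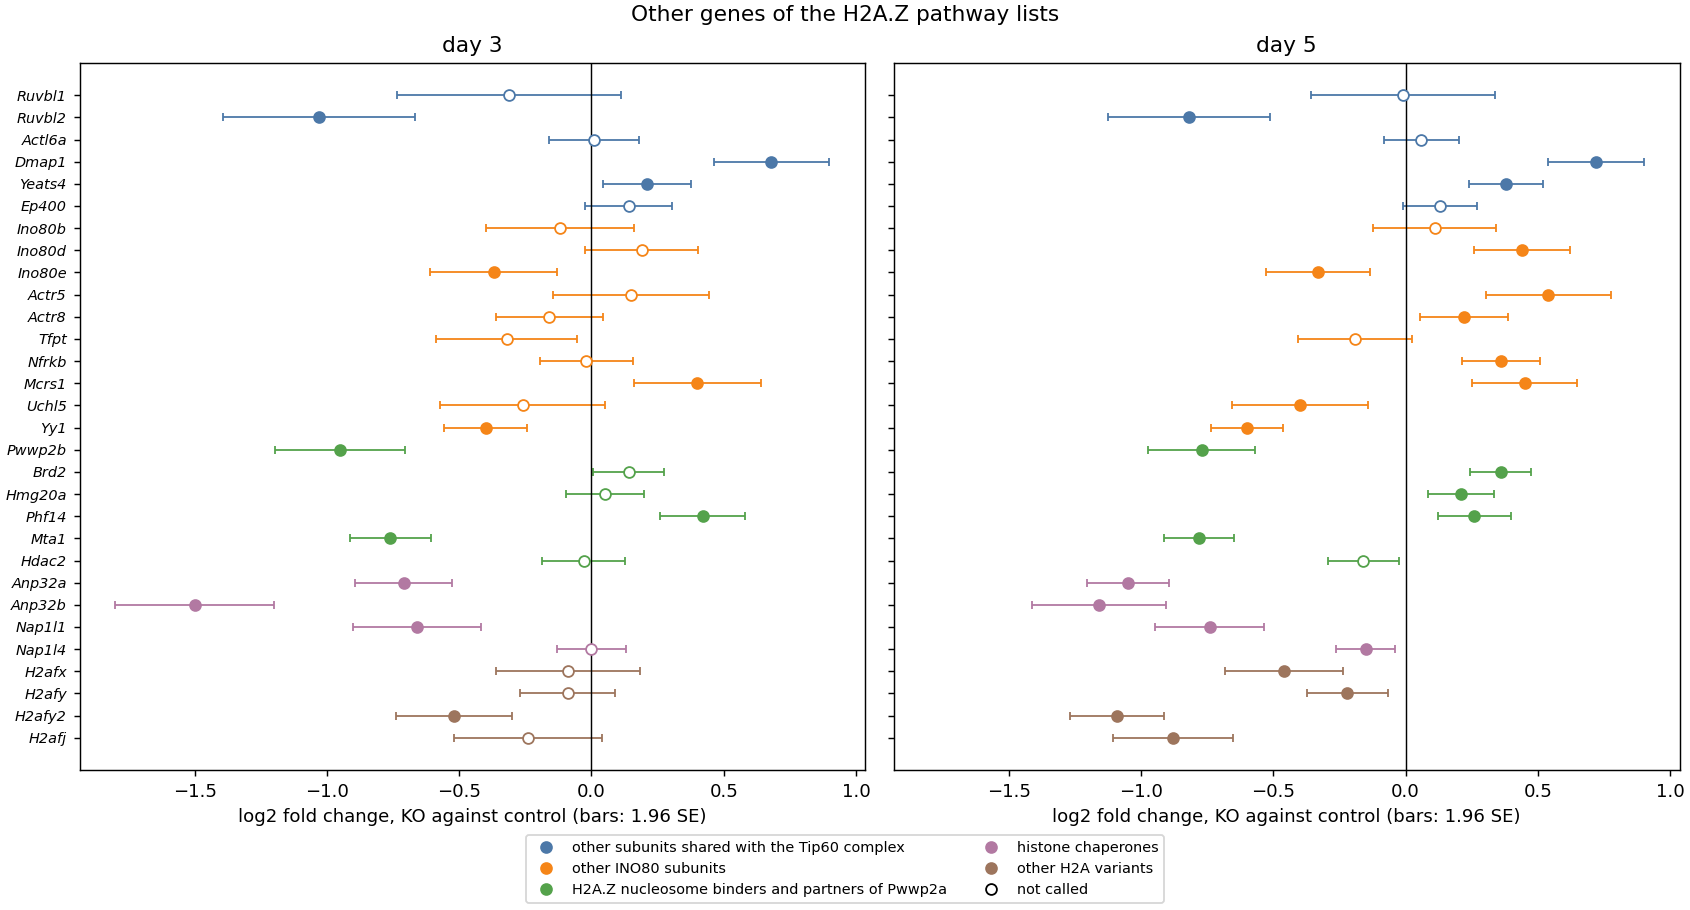
Log2 fold change of KO against control for the 30 further genes at day 3 (left) and day 5 (right), coloured by list, with bars of 95% intervals from the SE and filled circles for called genes. All 4 chaperones and all 4 other H2A variants are filled and left of 0 at day 5.

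Over the 14 libraries, the gene whose log2 CPM followed H2afz most closely was Snhg4 (Pearson r = 0.951), followed by Impdh2, Ppid, Tspyl2 and Bcl7a (r = 0.927 to 0.933). After removal of the group means, r was 0.932 for Snhg4 and 0.723 to 0.79 for the other 4 genes. For H2afv the closest were Asb3 (r = 0.948), Slc25a45, Cep41, Snapc5 and Scml2 (r = 0.928 to 0.941), with 0.767 to 0.808 after removal of the group means. H2afz and H2afv themselves had r = -0.55 over the libraries and -0.14 after removal of the group means. These are descriptions over libraries that share groups and embryos, and the genes were picked for their high r among all tested genes.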

How the data were processed

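RNA was sequenced as stranded poly(A) libraries with 80 bp paired-end reads, per the labels' protocols. The authors deposited raw read counts per gene identifier, made with featureCounts on mm10 per the submitters' processing notes; the aligner, annotation release, strand setting and handling of reads with several matches were not stated in them. Each table has 27179 lines, of which 909 without an identifier (0.194% to 0.315% of counts per library) and 112 Xist, Tsix and Y-linked genes were left out. Counts were filtered (filterByExpr), scaled by TMM and tested with edgeR 4.0.16 (R 4.3.3), robust quasi-likelihood, 1 mean per group over all 14 libraries, with Benjamini-Hochberg adjustment over 14327 genes and calls at 0.05. The SE is the log2 fold change divided by the square root of the F statistic, and 95% intervals are normal intervals from it. edgeR raises a p to the Poisson p where that is larger, which happened for Vps72 and Actr6 in KO against control at day 3 and for Vps72 and Ino80 between days in KO, and changed no call. The fit was tested on simulated data. Replicates are labelled by embryo, except that day 3 control replicates 1 and 2 share an embryo, so p-values measure the spread between these samples.

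Groups came from the labels. Genes named are Kat5, the 10 members, up to 4 genes per pathway list with the smallest adjusted p at each day, Mki67, Top2a and Pcna of the proliferation list, the 5 genes most correlated with H2afz and with H2afv (log2 CPM, prior count 2), and Ruvbl1, Gm8203 and other overlapping or sequence-sharing genes, chosen after their values or sequences were seen. Members and lists were chosen with earlier results of these data known. Same-numbered KO libraries come from 1 embryo at both days, per the labels, so there the numbers pair them. The correlations of their deviations from the group means were -0.017, -0.023 and 0.204. Controls also share embryos between the days. By label, 1 embryo gave control replicates 1 and 2 of day 3 and replicate 1 of day 5, and another gave replicate 3 at both days. Those correlations were 0.02, 0.077 and -0.023. The main fit did not use this pairing. Symbols and coordinates are RefSeq, coding sequences GENCODE M21, both on mm10. Alternatives were DESeq2 1.42.0, its size factors in edgeR, no filter, only the groups compared, each library left out, summing the libraries of 1 embryo, sex as covariate, blocks by number or embryo, and, added after seeing the data, Gm8203 counts added to H2afz. The fibroblast, cartilage, skeletal muscle, macrophage, endothelium, epithelium and neural marker lists were read as summed CPM per group. Those whose KO and control libraries did not overlap are given in the results. Skeletal muscle (49.4 to 185 CPM) and epithelium (4.58 to 27.4 CPM) overlapped at both days, as did macrophage, neural and cartilage markers at day 5.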

Additional observations from a re-analysis of the deposited data

Results flagged for a closer look

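The KO effect on Pwwp2a differed between the days by 0.70 on the log2 scale, as the test of that difference showed (adjusted p = 0.00125 by edgeR). The KO effect on Vps72 differed between the days by 0.42 (adjusted p = 0.0468 by edgeR). In the day 5 controls the highest Pwwp2a library stood at 24.3 CPM, apart from the other 3 at 23 to 23.2 CPM: its gap to the next library was 0.836 of the group's range, just over Dixon's critical value at the 95% level. Of 22 groups of 4 libraries looked at in this way, about 1 in 20 would be marked by chance.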

How the results depend on the processing

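The count of members called in KO against control was 7 to 8 at day 3 and 5 to 8 at day 5 over the alternatives run, with 5 when sex was a covariate (H2afz and Pwwp2a lost). With sex as covariate, 6776 of all 14327 tested genes were called at day 5. Summing the day 3 control libraries of 1 embryo was not run for the day 5 comparison or the KO days, and the difference between days uses all 4 groups, so fitting only the groups compared was not run there. With a replicate block by number the counts were 7 and 7, and 13 and 22 for the further pathway genes. Over all 14327 tested genes, 6863 and 7873 were called with that block. Between genotypes the numbers do not pair embryos. The correlations of same-numbered libraries were -0.051 and -0.021 at day 3 and 0.23, 0.155, -0.166 and 0.428 at day 5. The embryo block changed the calls of Srcap, Ino80 and Vps72 given above and no other call of a member. The count of 2 members with a KO effect that differed between days was 1 with DESeq2, with its size factors, without the filter, with the libraries of 1 embryo summed and with the embryo block, and 1 to 2 with each library left out; Pwwp2a was called in each of these. Between days in KO, the count of 0 was 1 with sex as covariate and 0 to 1 with a library left out; the member called was Anp32e, at 0.37 without KO replicate 2 of day 3 (adjusted p = 0.0124) and 0.25 with sex (adjusted p = 0.0325). In the log2 ratio of H2afz to H2afv, leaving out a library gave -2.0 to -1.56 at day 3 and -1.07 to -0.71 at day 5, where the exact p of 0.0571 is the smallest that 3 against 4 allows. Uncalled values that changed sign: Actr6 in the difference between days (0.01 with DESeq2, 0.0 with sex, -0.10 to 0.04 with a library left out), Ino80c in the same (-0.23 to 0.02), H2afz between days in controls (-0.24 to 0.04 with a library left out, 0.11 with Gm8203 added), Znhit1 there (-0.06 to 0.12), and between days in KO Srcap (-0.07 to 0.04 with a library left out, 0.01 with the embryo block) and Ino80c (-0.05 to 0.20). Causes were not tested. Of 745 alternatives for single members, 693 kept the direction and the side of the threshold, 27 lost a call, 5 gained one and 20 changed sign. Depth limits H2afz most, with 16 to 264 counts per library.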
